A study of Mus musculus with 15 samples.

Results

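The unfolded protein response and the protein folding machinery of the endoplasmic reticulum (ER) were followed as 33 named genes across 15 RNA-seq libraries of mouse regulatory T (Treg) cells. The genes were taken by symbol, through GENCODE vM21, from tables that name genes by Ensembl identifier. All 33 were found among the 30949 genes listed in all 15 tables, and all 33 passed the filter on low values. They were sorted by role into 11 luminal chaperones and their partners, 4 protein disulfide isomerases, 4 genes for the sensors and the factor XBP1, 6 genes of the PERK branch, 4 genes of ER-associated degradation and 4 genes of the translocon and of glycosylation at entry.

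Spleen and lymph node cells were taken from female mice of the C57BL/6 strain with loxP-flanked Dock8 (Dock8flox/flox) and a YFP-Cre fusion driven by Foxp3 on 1 X chromosome (Foxp3YFP-Cre/+). Both sorted populations therefore carried the floxed Dock8 alleles and came from mice with the Cre allele. YFP- cells, in which that X chromosome is the silent one, were labelled WT. YFP+ cells, which express Cre, were labelled DOCK8 deficient and are called KO here, so that Cre and YFP expression cannot be told apart from loss of DOCK8. CD25+CD39+ Treg cells, sorted on CD4 per the design text and on CD3 per the growth protocol, were cultured for 16 h in supplemented RPMI with fetal calf serum, alone or with beads coated with antibodies to CD3 and CD28, which stimulate the antigen receptor and CD28 together. The unstimulated libraries numbered 4 from WT and 6 from KO cells, and the bead libraries 3 from WT and 2 from KO cells. The study addressed what DOCK8, an activator of CDC42 in immune cells, does in Treg cells. The age of the mice is not given in the sources used here.

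The ER is where secreted and membrane proteins are made, folded, glycosylated and checked. When unfolded chains accumulate there, the transmembrane sensors IRE1 (gene Ern1), PERK (Eif2ak3) and ATF6 start separate branches. IRE1 splices Xbp1 mRNA into the form that codes for an active transcription factor, ATF6 is cut to release another, and PERK phosphorylates eIF2 alpha, which slows translation while favouring ATF4. XBP1 and ATF6 are known for raising chaperones and degradation genes, and ATF4 with CHOP (Ddit3) for raising Trib3, Chac1 and Ppp1r15a. Lymphocytes enlarge their ER when they are activated to divide and secrete.

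Promoter sequences are given first because the chaperone genes and the PERK-branch genes differ in the motifs they hold. Of the 33 genes, 28 had an entry in the RefSeq table of promoters (build GRCm38.p6, 250 bases before to 50 after the start site). Manf, Hyou1, Atf6, Sec61a1 and Ostc had none. Both strands were searched for the ER stress element, CCAAT followed after any 9 bases by CCACG, which is known as a site for NF-Y with ATF6. The element was present in 8 of the 28 promoters (28.6%) and in 39 of all 32851 promoters in the table (0.119%). It was in 6 of 9 chaperone promoters (66.7%), and in those of Pdia6 and Syvn1. The upstream promoter of Hspa5, which codes for the central ER chaperone BiP, lies at chr2:34771840-34772089 on the plus strand. The element is in capitals, and its first base is 65 bases before the start site.
Hspa5: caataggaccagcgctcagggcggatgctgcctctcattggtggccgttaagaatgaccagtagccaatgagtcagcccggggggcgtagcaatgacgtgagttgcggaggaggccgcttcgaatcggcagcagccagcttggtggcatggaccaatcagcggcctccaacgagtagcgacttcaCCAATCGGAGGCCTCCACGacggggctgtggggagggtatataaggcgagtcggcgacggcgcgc

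The other matches are shown with 8 bases on either side, on the strand of the gene, so that both ends and the spacer can be compared. Hsp90b1 had 2 matches in opposite orientations and was the only promoter in the whole table with 2 or more. In Calr, Creld2 and the second Hsp90b1 match the element is read from the opposite strand, so that the capitals start with CGTGG.
Hsp90b1, chr10:86705630-86705664, minus strand: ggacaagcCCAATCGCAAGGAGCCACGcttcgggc
Hsp90b1, chr10:86705525-86705559, minus strand: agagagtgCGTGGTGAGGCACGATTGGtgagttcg
Calr, chr8:84847067-84847101, minus strand: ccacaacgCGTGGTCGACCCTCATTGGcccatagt
Canx, chr11:50325792-50325826, minus strand: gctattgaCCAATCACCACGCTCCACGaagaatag
Creld2, chr15:88819512-88819546, plus strand: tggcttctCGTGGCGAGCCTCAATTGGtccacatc
Dnajc3, chr14:118937819-118937853, plus strand: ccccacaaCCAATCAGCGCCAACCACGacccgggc
Pdia6, chr12:17266483-17266517, plus strand: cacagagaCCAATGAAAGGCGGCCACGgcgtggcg
Syvn1, chr19:6046524-6046558, plus strand: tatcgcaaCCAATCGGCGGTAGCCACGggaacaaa

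The PERK branch carried another motif. The C/EBP-ATF response element TGATGNAA, a known kind of site for ATF4 and CHOP dimers, was found on either strand in 4 of the 28 promoters (14.3%) and in 3.97% of all promoters. It was in 3 of 6 PERK-branch promoters (Atf3, Chac1 and Trib3) and in Herpud1. The 4 matches are shown in capitals with 8 bases on either side; each is read from the opposite strand, and that of Trib3 lies just after the start site. None of the 28 held both motifs, and the core TGACGTGG of the unfolded protein response element was in 0 of the 28 and in 0.676% of all promoters. A match is a description of letters in this window.
Atf3, chr1:191183428-191183451, minus strand: tctcgcacTTGCATCAccaagtcc
Chac1, chr2:119351041-119351064, plus strand: ccctgccgTTGCATCActcctgcc
Trib3, chr2:152344031-152344054, minus strand: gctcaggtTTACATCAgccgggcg
Herpud1, chr8:94386309-94386332, plus strand: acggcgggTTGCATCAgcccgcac

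Values are in TPM, read abundances divided by transcript length and brought to a common total per library. They can be compared between genes per length, but the number of reads behind a value is unknown. TPM summed to between 819697 and 938139 per library, and pairwise correlations of log2(TPM + 1) within a group ran from 0.706 to 0.903. The tables list 36904 genes for unstimulated and 31785 for bead libraries, and a difference in preparation between these sets cannot be told apart from the effect of beads. Dock8 was at 14.6 ± 5.35 TPM (SD, n = 4) in unstimulated WT and 8.58 ± 1.85 (n = 6) in unstimulated KO libraries, with overlapping groups. With beads it was at 9.25 ± 0.763 (n = 3) in WT and at 7.90 and 5.82 in the KO libraries. These levels are as deposited. Genes whose mean reached 20 TPM in some group were also lower in unstimulated KO cells, with a median log2 difference of -0.44. A gene total includes reads outside the deleted exons. The 9 Treg and T cell markers, Foxp3 among them, were all above 5 TPM on average in each group, though their sum was lower in KO than in WT libraries without beads, as given beside the genotype comparison. The 55 predicted genes (symbols of Gm and a number) with a mean of at least 1000 TPM took a large share of TPM. It was 24.9 to 46.4% in unstimulated WT and 37.6 to 58.5% in unstimulated KO libraries. With beads it was 14.6 to 20.3% in WT and 19.5 to 26.4% in KO libraries. Every other gene's TPM moves with that share. Each comparison is therefore given as deposited and again after scaling the libraries to 531 abundant genes. Bulk libraries cannot tell fewer expressing cells from less RNA per cell. The labels call the samples independent without naming separate mice or cultures, so the p-values cover only the spread between these samples, which may be technical.

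With beads, most chaperones, all 4 translocon genes and Atf4 rose in both genotypes, while the sensors, the degradation genes and Ddit3, Trib3 and Chac1 of the PERK branch did not pass the test. In WT cells 16 of the 33 genes were called higher and 0 lower by limma at a Benjamini-Hochberg adjusted p under 0.05, beside 4.6% of all 29989 genes called higher and 11.2% called in either direction. In KO cells 18 were called higher and 0 lower, beside 5.95% and 8.11% of all genes. Among the 5937 genes whose mean reached 20 TPM in some group, a set that holds 21 of the 33 members, 20.5% were called higher in WT and 26.6% in KO cells. The 16 calls in WT cells were all among the 18 in KO cells, and Sdf2l1 and Pdia3 made up the rest. The median log2 difference of the 33 genes was 1.41 in WT and 1.56 in KO cells, against 0.19 and 0.74 for expressed genes and -0.44 and -0.23 for all genes tested. After scaling, 11 were higher and 0 lower in WT, 10 higher and 2 lower (Trib3 and Sel1l) in KO, and the medians were 0.77 and 0.53 against -0.47 and -0.33 for expressed genes. Scaling also moved the calls over all genes, from 1378 higher and 1988 lower to 694 and 3759 in WT, and from 1785 and 646 to 644 and 4308 in KO.

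**Figure D1:**
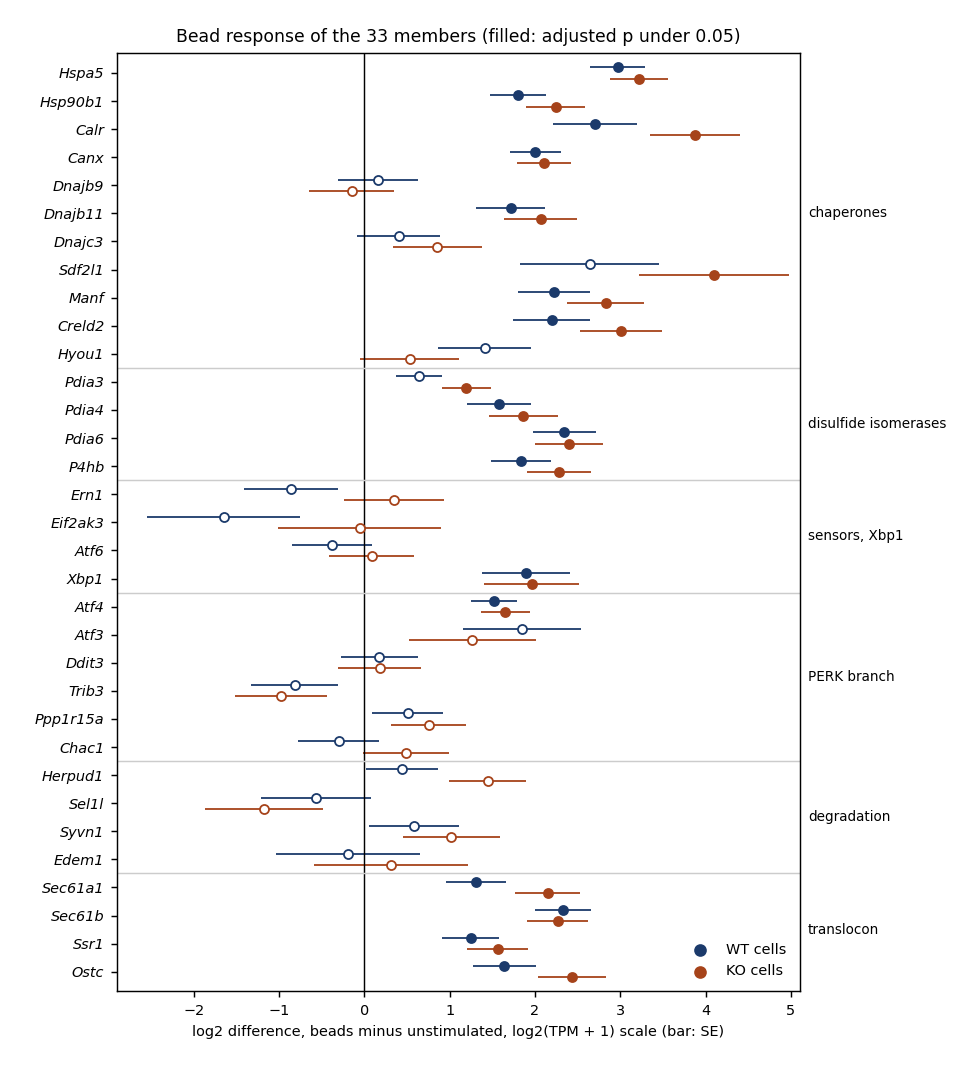
Bead response of each of the 33 genes, grouped by role: the horizontal axis is the log2 difference on the log2(TPM + 1) scale with its SE, dark blue for WT (3 bead against 4 unstimulated libraries) and orange-brown for KO (2 against 6), filled where the limma adjusted p was under 0.05. Filled points gather among chaperones, disulfide isomerases and translocon genes, with Xbp1 and Atf4 the only filled genes in the other groups.

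Hspa5 codes for BiP, which binds unfolded chains and holds the stress sensors inactive. It was at 37.2, 25.6, 31.7 and 43.8 TPM in unstimulated WT libraries and at 277, 281 and 260 with beads. In KO cells it lay between 14.5 and 36.3 TPM (median 24.5) without beads and at 210 and 248 with them. Every bead library was thus far above every unstimulated one. The log2 difference was 2.97 (SE 0.32, limma adjusted p = 0.000117) in WT and 3.22 (SE 0.34, limma adjusted p = 9.35e-05) in KO cells, or 2.28 and 2.09 after scaling, with both still called. By mean TPM Hspa5 moved to the second place among the 33 genes in both bead groups, behind Sec61b, where Pdia3 and Sec61b had led both unstimulated groups.

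Hsp90b1 codes for GRP94, the ER form of HSP90 that folds integrins and Toll-like receptors. Its levels were 37.4, 57.9, 27.0 and 52.5 TPM in unstimulated WT and 149, 164 and 135 in WT bead libraries. In KO cells they were 18.0 to 41.8 (median 23.7) without beads and 117 and 129 with them. The bead libraries stood above all unstimulated ones in both genotypes. The log2 difference was 1.80 (SE 0.33, limma adjusted p = 0.00313) in WT and 2.24 (SE 0.35, limma adjusted p = 0.00123) in KO cells.

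The lectin chaperones calreticulin (Calr) and calnexin (Canx) retain newly glycosylated proteins until they are folded. Calr rose from 28.6, 32.9, 18.4 and 33.7 TPM to 187, 188 and 184 in WT cells. In KO cells it rose from between 3.28 and 21.1 (median 13.0) to 184 and 153. The bead levels of the genotypes were close while the unstimulated KO libraries reached down to 3.28, and the mean TPM ratio was 6.55 in WT and 13.4 in KO cells. The log2 differences were 2.71 (SE 0.49, limma adjusted p = 0.00319) and 3.87 (SE 0.53, limma adjusted p = 0.000441). Canx, its membrane-bound relative, rose from 32.1, 41.1, 28.9 and 36.2 to 135, 140 and 147 TPM in WT and from between 16.4 and 36.3 (median 26.7) to 116 and 112 in KO cells, with no overlap. Its log2 differences were 2.00 and 2.11 (SE 0.30 and 0.32), called in both genotypes, and in KO cells the scaled value of 0.98 was not called (limma adjusted p = 0.0636).

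Manf and Creld2 are small ER proteins that are themselves secreted under stress; Manf binds BiP. Manf was at 35.0, 42.8, 10.2 and 45.8 TPM in unstimulated WT cells and at 141, 150 and 131 with beads. In KO cells it went from between 8.85 and 18.4 (median 11.5) to 85.9 and 98.4. WT library 2 was the low one among the unstimulated WT libraries, inside the range of the KO libraries. The log2 differences were 2.23 (SE 0.42) in WT and 2.83 (SE 0.45) in KO cells, both called with and without scaling. Creld2 rose from 15.02, 14.6, 5.84 and 5.85 to 52.5, 51.7 and 37.3 TPM in WT, and from between 1.37 and 7.64 (median 5.26) to 40.3 and 42.5 in KO cells. It, too, was called in both genotypes with and without scaling, at 2.20 (SE 0.45) and 3.01 (SE 0.48).

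Among the J-domain partners of BiP the response was split. Dnajb11 (ERdj3), an abundant luminal co-chaperone, went from 13.2, 15.1, 16.2 and 36.0 to 58.5, 65.7 and 65.2 TPM in WT and from between 8.39 and 24.8 (median 12.6) to 60.1 and 67.2 in KO cells. Its log2 differences of 1.71 (SE 0.40) and 2.07 (SE 0.43) were called in both, and in KO cells the scaled value of 0.96 was not (limma adjusted p = 0.0703). Sdf2l1, which forms a complex with Dnajb11, was the most variable of the chaperones: 5.09, 12.8, 5.58 and 17.0 TPM in unstimulated WT cells, and in KO cells listed at 0 in 3 of the 6 libraries with 2.08, 7.28 and 11.8 in the others. With beads it stood at 57.5, 66.2 and 60.2 in WT and at 33.2 and 58.2 in KO cells, above all unstimulated libraries. It was called in KO cells (limma adjusted p = 0.0091) and fell just short in WT cells, at 2.64 (SE 0.82, limma adjusted p = 0.05005). Dnajb9 (ERdj4) and Dnajc3 (p58IPK), by contrast, had log2 differences of 0.16 and 0.40 in WT and -0.15 and 0.86 in KO cells, and their groups overlapped. Hyou1, the nucleotide exchange factor of BiP, was at 3.47 to 10.3 TPM in unstimulated WT and at 12.2, 22.3 and 18.0 in WT bead libraries, without overlap but not called (1.41, SE 0.54, limma adjusted p = 0.111). Its 2 KO bead libraries, at 10.3 and 10.8, lay inside the unstimulated KO range of 2.48 to 19.6.

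The disulfide isomerases form and rearrange the cysteine bridges of folding proteins. Pdia6 was at 18.9, 16.7, 11.9 and 35.9 TPM in unstimulated WT and 105, 99.6 and 101 in WT bead libraries, and in KO cells at 8.54 to 26.3 (median 16.7) and then at 84.5 and 92.6. It was called in both genotypes with and without scaling, with 2.35 (SE 0.37) in WT and 2.40 (SE 0.40) in KO cells. P4hb, the archetypal isomerase PDI, was at 27.2, 24.2, 23.8 and 36.5 TPM against 96.1, 95.6 and 111 in WT, and at 10.1 to 37.6 (median 21.2) against 102 and 103 in KO cells. It was likewise called in both, at 1.83 (SE 0.35) and 2.29 (SE 0.38), with and without scaling. Pdia4 went from 21.8, 21.6, 14.5 and 25.5 TPM to 57.3, 72.1 and 60.3 in WT, and from between 6.17 and 21.5 (median 17.3) to 45.2 and 68.2 in KO cells. It was called as deposited in both, but not after scaling. Pdia3 (ERp57), the partner of Calr and Canx, started highest and changed least. Its levels were 94.8, 115, 92.6 and 149 TPM in unstimulated WT cells against 189, 143 and 192 with beads, with overlap, and 52.7 to 92.0 (median 66.6) against 175 and 140 in KO cells, without. The log2 difference was 0.64 (SE 0.27, limma adjusted p = 0.144) in WT and 1.19 (SE 0.29, limma adjusted p = 0.0178) in KO cells, and -0.05 and 0.05 after scaling.

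**Figure D2:**
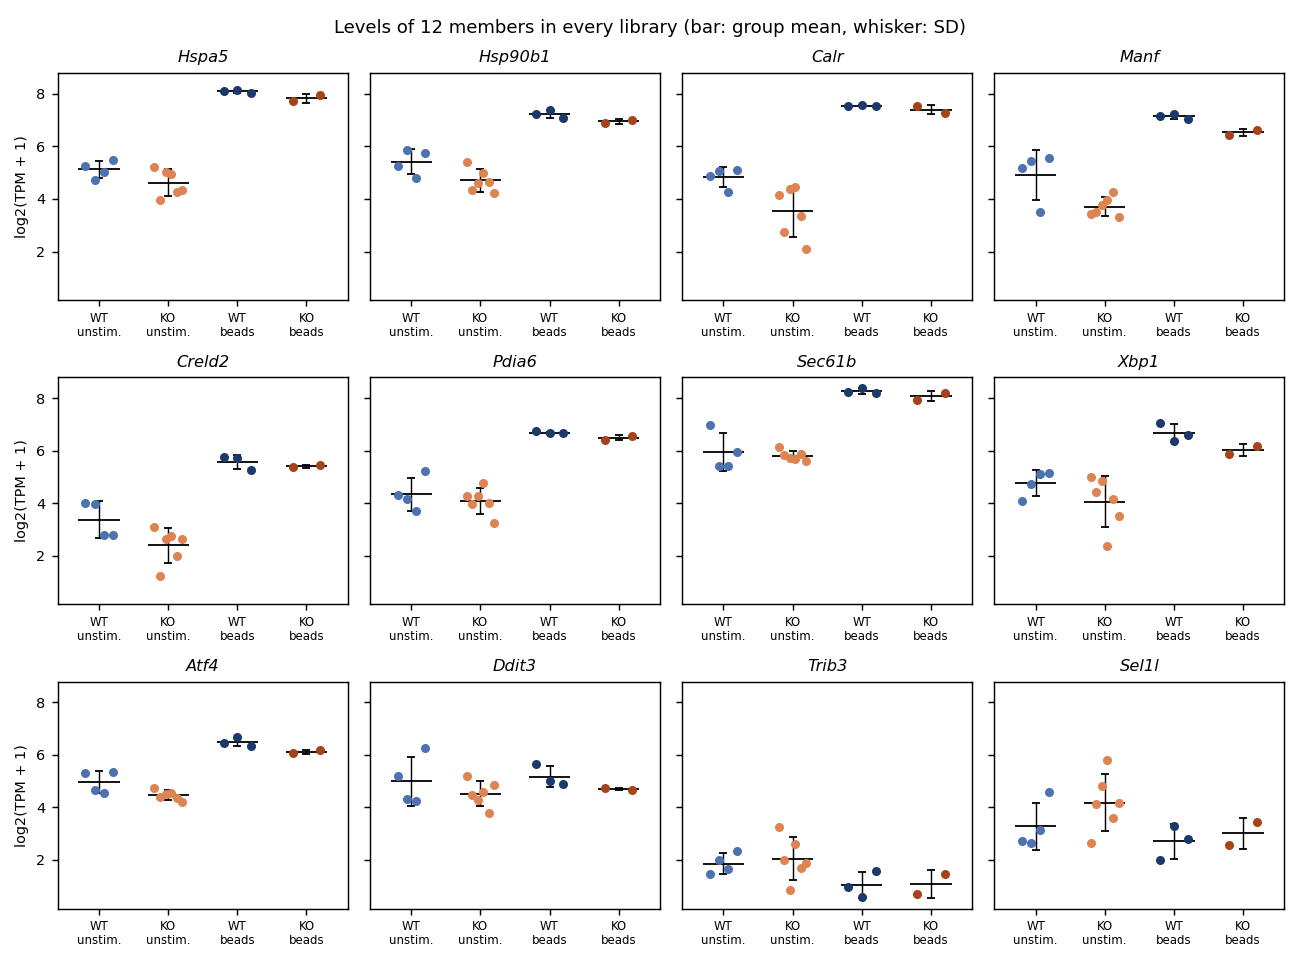
Level of 12 of the genes in each of the 15 libraries, on the log2(TPM + 1) scale, with 1 point per library, the group mean as a bar and the SD as a whisker. In the panels from Hspa5 to Atf4 both bead groups lie above both unstimulated groups, and in those of Ddit3, Trib3 and Sel1l the groups overlap.

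At the entrance to the ER, Sec61a1 and Sec61b code for the pore and a small subunit of the SEC61 translocon, Ssr1 for a translocon-associated protein and Ostc for a subunit of the oligosaccharyltransferase that works at the pore. All 4 were called higher in both genotypes. Sec61b, the most abundant of the 33 with beads, went from 125, 41.9, 41.9 and 60.7 to 302, 335 and 288 TPM in WT and from between 47.7 and 68.9 (median 53.7) to 243 and 295 in KO cells. The unnumbered WT library was the high one without beads, still well below every bead library. The log2 difference was 2.33 (SE 0.33) in WT and 2.26 (SE 0.35) in KO cells. Sec61a1 rose from 41.9, 36.3, 23.4 and 53.2 to 86.0, 94.4 and 100 TPM in WT and from between 13.4 and 31.9 (median 24.3) to 109 and 95.1 in KO cells. Ostc rose from 49.3, 39.3, 38.3 and 30.8 to 127, 109 and 136 in WT and from between 7.67 and 31.7 (median 22.2) to 112 and 115 in KO cells. Ssr1 was lower in level, at 6.54, 9.31, 6.09 and 8.66 TPM against 20.7, 18.0 and 19.1 in WT and at 3.93 to 9.74 (median 4.60) against 17.5 and 18.1 in KO cells. None of the 4 groups of values overlapped between unstimulated and bead libraries. After scaling, Sec61b was called in both genotypes, Sec61a1 in KO cells and Ostc and Ssr1 in neither.

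Of the sensors and XBP1, Xbp1 was the 1 gene of 4 called. Its total mRNA, which gene-level values cannot divide into spliced and unspliced forms, was at 15.9, 25.6, 33.9 and 34.6 TPM in unstimulated WT and 132, 80.7 and 95.6 in WT bead libraries. In KO cells it was at 4.17 to 31.1 (median 18.8) without beads and at 56.8 and 71.1 with them. The groups did not overlap in either genotype, but the log2 differences of 1.89 (SE 0.52, limma adjusted p = 0.0286) and 1.96 (SE 0.55, limma adjusted p = 0.0409) became 1.20 and 0.85 after scaling and were not called. The sensor genes were low and uneven. Ern1 was at 5.32, 10.9, 4.42 and 16.1 TPM in unstimulated WT and 6.05, 4.46 and 2.31 in WT bead libraries, with a log2 difference of -0.86 (SE 0.55, limma adjusted p = 0.344). Eif2ak3 ranged from 0.716 to 17.9 TPM among the unstimulated WT libraries alone, and its 2 KO bead libraries were at 1.04 and 15.8. Atf6 stayed between 0.772 and 4.14 TPM in every library of the 4 groups.

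Among the 6 PERK-branch members Atf4 rose, and Ddit3, Trib3, Atf3, Ppp1r15a and Chac1 did not pass the test as deposited. Genes of the wider integrated stress response, some of them called higher, are given further below. Atf4 was at 39.0, 24.1, 22.7 and 39.5 TPM in unstimulated WT cells and at 85.9, 101 and 80.4 with beads, and in KO cells at 17.3 to 26.0 (median 20.9) and then at 65.6 and 70.8. No bead library overlapped an unstimulated one. The log2 difference was 1.52 (SE 0.27, limma adjusted p = 0.00287) in WT and 1.65 (SE 0.29, limma adjusted p = 0.00262) in KO cells. After scaling it was 0.83 (called) and 0.53 (not called). Ddit3, which codes for CHOP, the factor linked to cell death in prolonged ER stress, was at 35.5, 18.8, 17.9 and 74.8 TPM in unstimulated WT and 48.6, 30.8 and 28.6 in WT bead libraries. In KO cells it lay at 12.8 to 35.4 (median 22.0) without beads and at 25.5 and 24.6 with them. Both bead groups sat inside the unstimulated range. The log2 differences were 0.17 (SE 0.45, limma adjusted p = 0.844) and 0.18 (SE 0.48, limma adjusted p = 0.876), and they turned to -0.49 and -0.93 after scaling. The tables list 1 of the GENCODE entries with the symbol Ddit3, at chr10:127290774-127296288, and reads that it shares with the overlapping entry cannot be assigned.

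Trib3, a pseudokinase that binds ATF4 and CHOP, was at 1.74, 3.01, 2.12 and 4.09 TPM in unstimulated WT cells and 0.938, 0.518 and 1.99 with beads. In KO cells it was at 0.827 to 8.49 (median 2.83) without and at 0.624 and 1.74 with beads. The log2 difference was -0.82 and -0.98, not called, and the scaled KO value of -1.66 was called lower (limma adjusted p = 0.037). Atf3, a stress-inducible repressor of the same family, was at 0.740, 9.56, 1.63 and 0 TPM in unstimulated WT and 7.69, 12.5 and 6.28 in WT bead libraries. Its log2 difference of 1.85 (SE 0.69, limma adjusted p = 0.101) was not called with all libraries, and was called at 2.51 without WT unstimulated library 1, the one at 9.56. Ppp1r15a, the phosphatase subunit that reverses the PERK signal, had log2 differences of 0.51 and 0.75, not called, and Chac1, a glutathione-degrading enzyme, was at or below 2.49 TPM in all 15 libraries.

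ER-associated degradation returns misfolded chains to the cytosol for the proteasome, and 0 of its 4 genes were called in either genotype. Herpud1, an organiser of the degradation complex, was at 27.2, 14.7, 18.5 and 41.8 TPM in unstimulated WT and 29.6, 35.8 and 32.4 in WT bead libraries. In KO cells its 2 bead libraries, at 41.8 and 46.6, lay above the unstimulated range of 6.58 to 26.1 (median 18.3), with a log2 difference of 1.45 (SE 0.45, limma adjusted p = 0.063). Without KO unstimulated library 4 it was called, at 1.59. Sel1l, the adaptor of the HRD1 ligase, went the other way: 5.58, 5.22, 7.86 and 23.1 TPM against 3.04, 8.91 and 5.95 in WT, and 5.26 to 54.8 (median 16.6) against 5.01 and 9.81 in KO cells. Its KO log2 difference of -1.17 (SE 0.69, limma adjusted p = 0.361) was not called as deposited, and the scaled -2.21 was called lower. Syvn1, which codes for HRD1 itself, and Edem1, a lectin that picks out terminally misfolded glycoproteins, had log2 differences of 0.58 and -0.19 in WT and 1.02 and 0.31 in KO cells. Edem1 ran from 3.31 to 83.2 TPM among the 6 unstimulated KO libraries.

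**Figure D3:**
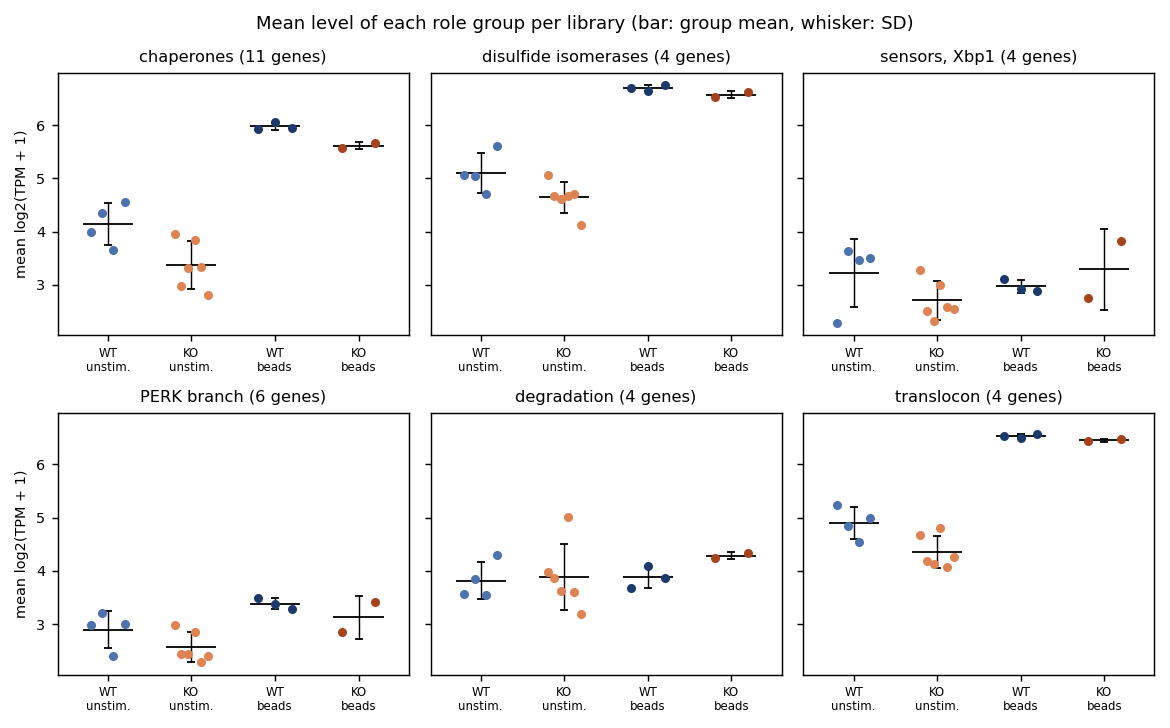
Mean log2(TPM + 1) over the genes of each role group in each library, with 1 point per library, the group mean as a bar and the SD as a whisker. The bead groups stand above the unstimulated ones for chaperones, disulfide isomerases and translocon genes, and overlap them for the sensors and for degradation. For the PERK branch the WT bead libraries (3.28 to 3.49) stand above the unstimulated WT ones (2.39 to 3.21). Its KO bead libraries (2.84 and 3.41) overlap the unstimulated KO ones (2.29 to 2.98).

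The ratio of Hspa5 to Ddit3 TPM within a library does not depend on the scale of that library. It was 0.586 to 1.76 in the unstimulated WT and 0.683 to 1.69 in the unstimulated KO libraries. It was 5.70 to 9.13 in the WT bead and 8.24 to 10.1 in the KO bead libraries, with no overlap between culture conditions in either genotype. The mean log2(TPM + 1) of the 11 chaperones exceeded that of the 6 PERK-branch genes by 1.02 to 1.56 and 0.414 to 1.05 without beads and by 2.44 to 2.69 and 2.25 to 2.73 with them. This gap, unlike the ratio, still moves with scale, because the added 1 TPM damps low genes more than high ones. Both measures were chosen after the values were seen and are given with no test. Set against the sequences above, the ER stress element was in 6 of the 15 called genes with a promoter entry and in 2 of the 13 not called (Dnajc3 and Syvn1), and the C/EBP-ATF element in 0 of the 15 and in 4 of the 13. Motifs and calls both follow role here: the first element was in 6 of 9 chaperone promoters and the second in 3 of 6 PERK-branch ones. A link between motif and call cannot be told apart from role and was not tested.

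Some of these calls depended on single libraries, and calls over all genes moved too. In WT cells the fits that left out 1 library called 1650 to 3380 of all genes, against 3366 with every library. The range for KO cells is given in the closing section. The bead calls of 8 genes, Hspa5, Hsp90b1, Calr, Canx, Manf, Creld2, P4hb and Sec61b, were present in both genotypes in every fit that left out 1 library. In WT cells Xbp1 and Sec61a1 each lost their call in 5 of the 7 fits that left out 1 WT library, and Ssr1 in 4. All 3 were lost without any 1 of the WT bead libraries, Xbp1 also without unstimulated library 1 or the unnumbered one, Sec61a1 without unstimulated library 1 or 2 and Ssr1 without 2. Xbp1 was lost in KO cells without unstimulated library 4 or 5 as well. Leaving out WT bead library 3 took the WT count from 16 to 10, losing Dnajb11, Pdia4, Xbp1, Sec61a1, Ssr1 and Ostc. Leaving out KO bead library 4 or 5 took the KO count from 18 to 11 or 9. Both fits lost Dnajb11, Sdf2l1, Pdia3, Pdia4, Xbp1, Sec61a1 and Ssr1, and the one without library 5 also Pdia6 and Atf4. Such a fit has 1 KO bead library, assumed to vary like the other groups.

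Other genes of the same pathways, 127 tested from 6 lists, were followed beside the 33. In WT cells 25 were called higher and 4 lower with beads, and in KO cells 40 higher and 1 lower. Called in either direction were thus 22.8% and 32.3%, against 35.6% and 32.6% of expressed genes and 11.2% and 8.11% of all genes. Higher calls alone made up 20.5% and 26.6% of expressed genes. After scaling 11 were higher and 8 lower in WT, and 12 and 8 in KO cells. Among the 5937 expressed genes these scaled counts were 656 and 1590 in WT and 605 and 1552 in KO cells. The median log2 difference of the 127 was 0.66 and 1.09, against 0.19 and 0.74 for expressed genes. After scaling it was 0.05 and 0.03, against -0.47 and -0.33. Among other translocon, signal peptidase and oligosaccharyltransferase genes 11 of 30 were higher in WT and 17 of 30 in KO cells, with 0 lower, and after scaling 5 were higher in WT, and 6 higher and 1 lower in KO cells. Ddost, a core oligosaccharyltransferase subunit, went from a mean of 26.3 to 92.8 TPM in WT (1.85, SE 0.33) and from 12.9 to 72.4 in KO cells (2.45, SE 0.36). ER-Golgi transport genes were higher in 6 and 10 of 20, led in WT cells by the COPII coat subunit Sec13 at 2.25 (SE 0.34), and after scaling 1 was higher and 1 lower in WT and 1 higher in KO cells. Of other regulators 0 of 12 were higher in WT and 2 in KO cells (Rtcb, the ligase that joins spliced Xbp1, and Tmbim6), neither of them called after scaling, when 2 were lower in WT and 1 in KO cells. Among other chaperones and disulfide enzymes 2 were higher and 2 lower of 24 in WT and 5 and 0 in KO cells, and after scaling 0 and 3 in WT and 1 and 4 in KO cells. The cyclophilin Ppib was among those higher in both as deposited, at 1.76 (SE 0.47) and 2.08 (SE 0.51), and was not called in either after scaling.

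Of the other integrated stress response genes 6 of 19 were called higher and 2 lower in WT cells, and 5 and 1 in KO cells, beside the 20.5% and 26.6% of expressed genes called higher. After scaling 5 were higher and 2 lower in WT, and 4 and 2 in KO cells. Phgdh, Psat1 and Shmt2, enzymes of serine and glycine synthesis, rose from means of 22.5, 13.2 and 11.1 TPM to 243, 100.5 and 106 in WT cells. In KO cells they rose from 13.1, 8.82 and 5.30 to 199, 78.2 and 82.5, and all 3 were called in both genotypes with limma adjusted p-values of at most 0.00757. Slc7a11, the cystine transporter, fell from 35.9 to 12.2 TPM in WT cells (log2 difference -1.51, SE 0.31, limma adjusted p = 0.00654) and from 42.9 to 15.3 in KO cells (-1.42, SE 0.33, limma adjusted p = 0.0158). The 7 markers listed for bead activation of T cells summed to 59.3 to 188 TPM in the unstimulated and 1827 to 2032 in the bead libraries. Tnfrsf4 was the largest part with beads, at 1267 to 1486 TPM. Mki67 overlapped, at 0.408 to 4.52 without and 1.98 to 5.46 with beads. The remaining markers were higher in every bead library than in every unstimulated one. Sums of the lists for other cells moved too. The stromal list went from 46.7 to 63.4 TPM in unstimulated WT to 14.9 to 24.0 in WT bead libraries. Its largest part was Pecam1, at 31.2 to 45.9 and then 10.5 to 11.9 TPM, so that sum mainly followed 1 gene. The CD8 T and NK list went from 32.9 to 68.3 to 15.6 to 21.9 in WT cells. In KO cells these sums were 34.1 to 85.5 against 17.8 and 31.2, and 31.5 to 59.9 against 21.0 and 37.5. B cell markers summed to at most 35.1 TPM and erythroid markers to at most 28.0 in any library. Myeloid and dendritic markers, mostly Cst3, summed to 39.1 to 77.3 and 26.1 to 72.9 without beads and 64.5 to 109.9 and 62.0 to 83.0 with them, in WT and KO. The part of these cells in the bead responses was not tested.

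DOCK8 deficiency without beads was compared in 6 KO and 4 WT libraries, and none of the 33 genes was called, beside 0.0734% of all genes. At an unadjusted p under 0.05 there were 9 (27.3%, against 26.5% of expressed genes). Of the 33 differences 29 were below 0 and 4 (12.1%) above. Above 0 were 23.5% of expressed genes and 41.6% of all genes tested. The median of the members was -0.46, close to the -0.44 of expressed genes, and 0.04 after scaling, against 0.08. The lower TPM of the members in KO cells was thus close in size to that of expressed genes at large. The share of TPM in the 55 predicted genes was higher on average in these KO libraries. The smallest p belonged to Manf, with the values given above (log2 difference -1.21, SE 0.36, limma adjusted p = 0.221). Without WT unstimulated library 2, the one at 10.2 TPM, Manf was called at -1.68 (limma adjusted p = 0.0358). Calr came next, at -1.31 (SE 0.42, limma adjusted p = 0.254), and Sdf2l1 had the furthest value, at -1.93 (SE 0.69, limma adjusted p = 0.311). Pdia3 was the only one of the 33 whose groups did not overlap, 92.6 to 149 TPM in WT against 52.7 to 92.0 in KO cells, beside 1.27% of all genes and 3.42% of expressed genes lower in KO without overlap. The groups of Pdia3 overlapped after scaling. Hspa5 had -0.51 (SE 0.27, limma adjusted p = 0.506) and 0.04 after scaling, Xbp1 -0.72 and -0.19, and Sel1l, highest of the 33, 0.91 and 1.46, none of them called.

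Plasma cells carry high levels of these genes, so their markers are given here. The 6 plasma cell markers listed in all tables summed to 215 to 569 TPM in unstimulated WT and 53.2 to 225 in unstimulated KO libraries. With beads they summed to 270 to 313 in WT and 110 to 124 in KO libraries. Most of that was Ighm. Igkc was uneven in every group of more than 2 libraries and reached 24.2 TPM in unstimulated WT, 32.0 in unstimulated KO and 43.1 in WT bead libraries. Jchain stayed at or below 4.20 TPM, and Sdc1 reached 13.8 TPM in 1 WT library and at most 1.16 in unstimulated KO libraries. As deposited, some Treg markers differed with genotype as well, not all in the same direction. Expressed genes at large were also lower in unstimulated KO cells, at a median of -0.44. The 9 markers summed to 671 to 1192 TPM in unstimulated WT and 427 to 654 in unstimulated KO libraries, and to 1506 to 1555 and 1611 to 1699 with beads. Foxp3 was at 29.3 to 51.6 TPM against 6.29 to 26.0 without beads, and at 88.6 to 106 against 42.2 and 42.7 with them. Without beads Ctla4 and Tnfrsf18 were also lower in KO without overlap as deposited, and the remaining markers overlapped. Overlap of marker levels was not examined after scaling. Among those, Entpd1 was at 131.5 to 206.9 TPM in WT and reached higher in KO, at 167.1 to 337.4. With beads Il2ra and Ikzf2 were lower and Cd3g and Tnfrsf18 higher in KO, each without overlap. The part of these markers, or of the cells they stand for, in the genotype differences was not tested.

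**Figure D4:**
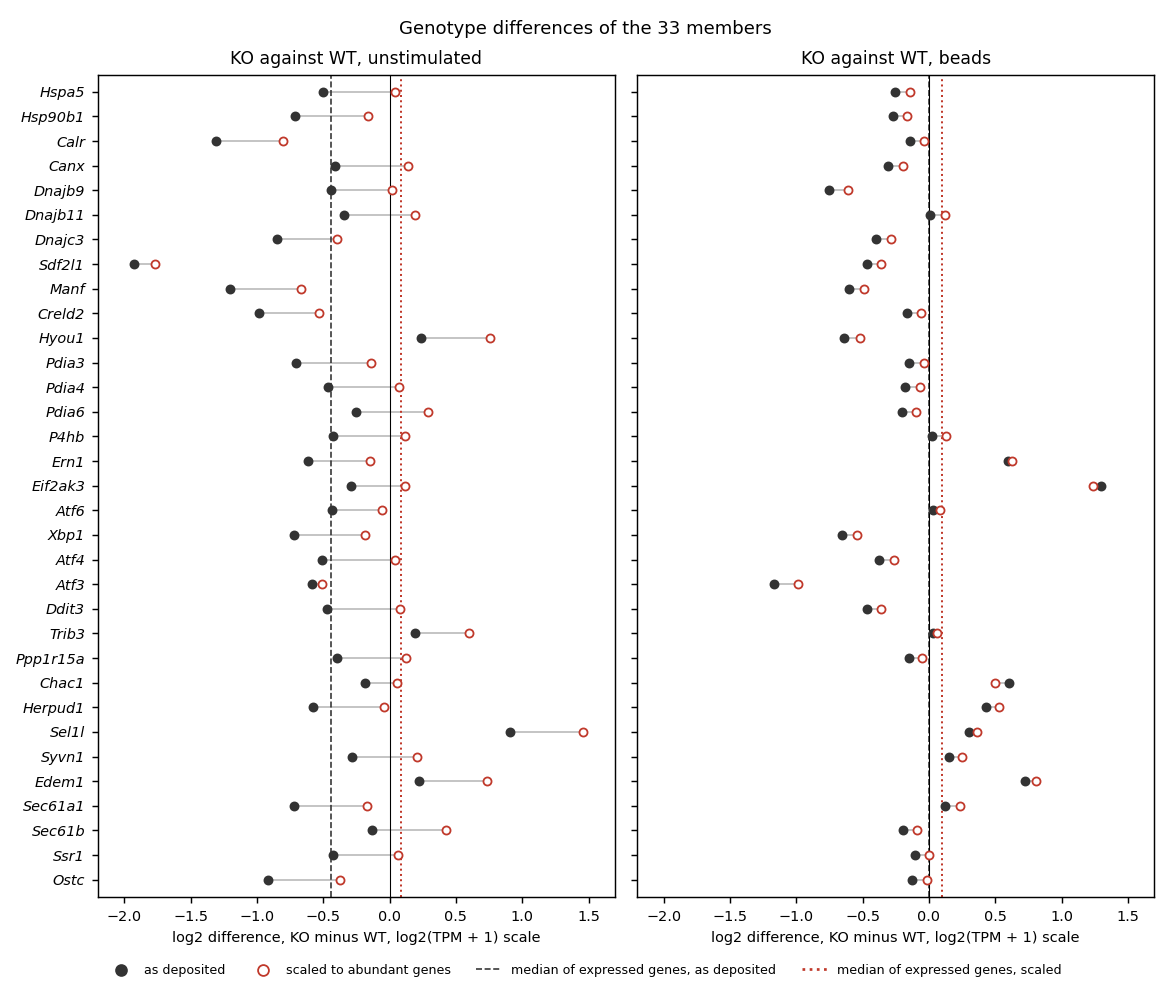
KO minus WT log2 difference of each of the 33 genes without beads (left) and with beads (right), on the log2(TPM + 1) scale, as deposited (filled) and after scaling to abundant genes (open), with the medians of expressed genes as vertical lines. Without beads most filled points lie left of 0, around the dashed median of -0.44, and the open points lie around 0.

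With beads the genotypes were compared in 2 KO and 3 WT libraries. Their title numbers were 4 and 5 in KO and 1, 2 and 3 in WT. Whatever goes with the title number thus cannot be told apart from genotype here. Of the 33 genes 0 were called, beside 0.00333% of all genes, and 0 had an unadjusted p under 0.05. The median was -0.15, against -0.0002 for expressed genes and 0.13 for all genes tested. After scaling it was -0.05, against 0.10 and 0.15. In 12 genes both KO libraries lay below all WT libraries and in 2 above. Among all genes 8.02% were lower and 17.4% higher without overlap, and among expressed genes 18.3% and 17.7%. The 12 included 7 of the 11 chaperones, among them Hspa5 (-0.25, SE 0.38), Canx (-0.30, SE 0.35) and Manf (-0.60, SE 0.51), as well as Xbp1 (-0.66, SE 0.62) and Atf4 (-0.37, SE 0.32). For each, the difference was less than 2 times its SE. The genes higher without overlap were Ern1 (0.60, SE 0.66) and Herpud1 (0.43, SE 0.50). After scaling 12 were lower and 3 higher, beside 6.18% and 20.4% of all genes and 12.5% and 22.8% of expressed genes.

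Whether the bead response itself differed between genotypes was tested as the difference of the differences. None of the 33 was called, beside 0.00333% of all genes, and 0 had an unadjusted p under 0.05. The median of the members was 0.44, against 0.47 for expressed genes, and about 0 after scaling. Calr, at 1.17 (SE 0.72), Herpud1, at 1.00 (SE 0.62), and Sec61a1, at 0.84 (SE 0.52), had larger responses in KO cells by less than 2 times their SE, and Hspa5, at 0.25 (SE 0.47), differed by less than its SE. Smaller KO responses of Hyou1 (-0.88, SE 0.79) and Sel1l (-0.61, SE 0.95) were also smaller than 2 times their SE. With 2 KO bead libraries such SE do not show that the responses are alike.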

How the data were processed

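The authors deposited 1 table of TPM per library (Smart-Seq2, 15 libraries). Per the submitters' processing notes, STAR, Salmon, DESeq2 and the genome mm10 were used; their versions and roles are not stated there. Groups came from the labels, with libraries named by the number in their titles; a WT and a KO library have none. The 33 members, the role groups and the other lists were chosen with earlier results of these data known.

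log2(TPM + 1) was fitted with limma 3.58.1 (R 4.3.3, trend) for 29989 genes with at least 1 TPM in 2 libraries, with 1 mean per group, 4 groups and 11 residual degrees of freedom. Differences and SE are on that scale and understate changes of low genes. P-values are two-sided and adjusted by Benjamini-Hochberg over all genes within a comparison; a gene was called under 0.05. For scaled values, each library was divided by its median ratio over 531 genes whose mean was 50 TPM or more in all 4 groups, predicted genes left out. The fit was tested on simulated data. Every member could be named; members that were called, or among the smallest p of their role, are given per library (groups of 6 as range and median), and of other lists up to 4 called genes. Alternatives were other pseudocounts, filters, scaling, samples, a block and each library left out. No protein sequence was used here. Other degradation genes are counted only in the total over lists.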

Additional observations from a re-analysis of the deposited data

Results flagged for a closer look

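Dixon's criterion at the 95% level was applied to 66 sets of TPM (33 genes in the unstimulated WT and KO groups). In 4 of them 1 library stood far from the rest. For independent, normally distributed values chance meets the criterion in about 1 in 20 sets. TPM were used without a logarithm and the sets share libraries, so that rate need not hold here. In unstimulated WT library 3, Dnajb11 was at 36.0 TPM with the next library at 16.2, Dnajc3 at 18.2 with the next at 7.76, and Sel1l at 23.1 with the next at 7.86. That library had the smallest share of TPM in the 55 predicted genes among unstimulated libraries, at 24.9%. In unstimulated WT library 1, Atf3 was at 9.56 TPM with the next at 1.63. Dnajb11 stayed called with beads in WT cells without unstimulated WT library 3, and lost its call without WT bead library 3. The groups with 3 and 2 bead libraries were not examined in this way.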

How the results depend on the processing

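The count of members called was 0 in both genotype comparisons and in the difference of responses under every alternative that kept all libraries. The median member difference moved with scaling to abundant genes, to 0.040 without beads between genotypes, 0.77 (WT) and 0.53 (KO) with beads, and -0.0026 in the difference of responses. With expressed genes only and the same scaling, chosen after seeing the data, it was 0.038, 1.12 (WT), 1.03 (KO) and -0.0026, over 21 members; some of them, such as Sdf2l1 and Creld2, reach 20 TPM only with beads, so the choice of genes itself raises these bead medians. A pseudocount of 5 gave 1.01 and 1.24 for the bead responses. Signs turned with scaling, in both settings, for Hspa5 (0.040), Atf4 (0.038) and Ddit3 (0.076) between genotypes without beads, and for Ddit3 with beads in WT (-0.49) and KO (-0.93).

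Counts over all genes moved more. Between genotypes without beads (22) they were 8 with a pseudocount of 0.1, 13 with 5, 9 scaled, 4 with only the groups compared and 2 for scaled expressed genes. Between genotypes with beads (1) they were 2 and 0 with these pseudocounts, 0 in both scaled settings and 15 with only the groups compared. For beads in KO (2431) they were 4952 scaled and 1198 with only the groups compared. For the difference of responses (1) they were 3 and 0 with these pseudocounts, 2 with a 5 TPM filter and 0 in both scaled settings. The cause was not tested.

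Leaving out 1 library gave 10 to 16 called members for beads in WT, 9 to 18 in KO, 0 to 1 between genotypes without beads and 0 to 0 in the other comparisons. Medians ran from 1.26 to 1.54, 1.49 to 1.63, -0.60 to -0.38, -0.28 to -0.10 (genotypes with beads) and 0.13 to 0.49 (difference of responses). All-gene counts ran from 1650 to 3380, 380 to 2703, 5 to 67, 0 to 3 and 0 to 6. Ddit3 with beads in WT ran from -0.077 to 0.59.

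Libraries with the same title number did not deviate together (correlations from -0.037 to 0.055), nor did every library correlate best with its own number, so the numbers were not taken as pairs. Deviations from the means of such small groups cannot exclude a shared source for libraries with the same number. With the title number as a replicate block, 14 members were called in WT (13 of the 16 above) and 14 in KO (14 of the 18), and all-gene counts were 1 between genotypes without beads, 922 with beads in KO cells and 0 in the difference of responses. TPM keep no depth, so none could be set against the spread of low genes such as Atf6 and Chac1.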
